A study of Mus musculus with 6 samples.

Results

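A set of 55 autosomal genes was close to silent in WT osteoblasts and detected in every TCKO library. Members were selected on the measured values themselves: the mean of the 3 WT libraries had to lie under 1 CPM (the count of a gene divided by the total of its library and multiplied by 1000000), each of the 3 TCKO libraries had to reach 2 CPM, and Kdr was left out. The 55 genes were found among 51155 genes on chromosomes 1 to 19 and 55471 genes in all. The genotype difference chose the members, so it is given as a description and was not tested.

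RNA was sequenced from primary osteoblasts, the bone-forming cells, taken from the calvarial bone of 3-day-old C57BL/6 mice and cultured for 3 days. WT animals were labelled wild type, with no further allele given. TCKO animals carried floxed alleles of 3 genes (Tet1fl/fl, Tet2fl/fl and Tet3fl/fl) together with Prx1-Cre, a transgene that drives the recombinase in limb bud and part of the skull mesenchyme, so cells of other origin in the cultures keep the alleles intact. Each genotype had 3 libraries of 8019999 to 10177214 counts, and nothing in the labels says whether these were separate animals. Where p-values appear, they measure the spread between these libraries, which may be technical.

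TET enzymes oxidise 5-methylcytosine, the methylated form of cytosine found mostly at CpG sites, and this oxidation is a step towards losing the methyl group. Methylated CpG-dense promoters are commonly silent, whereas promoters with few CpG sites depend less on this mark. Many tissue-specific genes, such as those for synaptic proteins, placental hormones and cornified skin proteins, are normally switched off in the osteoblast lineage.

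The libraries differed in ways that touch the set. TCKO replicate 3 held 4583 counts of Xist, the X-inactivation transcript of female cells, and 0 counts of the Y-linked gene Ddx3y, while the other 5 libraries held 1 to 4 and 675 to 1094. The share of mitochondrial counts was 2.22% and 2.47% in replicate 3 of WT and TCKO against 1.11% to 1.24% in the other libraries. Replicates 1 and 2 of a genotype were much closer to each other (chi-square per degree of freedom 1.69 in WT and 2.04 in TCKO) than either was to replicate 3 (16.5 to 23.3). Tet1 counts were 98 to 131 in WT and 51 to 68 in TCKO, Tet2 counts were 132 to 213 and 121 to 161, and Tet3 counts were 452 to 611 and 622 to 795. Counts summed over a whole gene include the exons left after recombination, so they do not check the labels of Tet2 and Tet3.

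Promoter sequences of 4 members and of the gene next to one of them show how unlike the starts of these genes were. They were taken from RefSeq on GRCm38.p6 and run 5′ to 3′ on the strand of the gene up to the base before the start of transcription. Mmp3 and Mmp10 are shown because they are neighbours on chromosome 9 with the same letters near the start, and capitals mark the TATA box letters TATAAA and the AP-1 site letters TGANTCA. The Mmp3 stretch is chr9:7445572-7445821 and the Mmp10 stretch is chr9:7502092-7502341, both on the plus strand.
Mmp3: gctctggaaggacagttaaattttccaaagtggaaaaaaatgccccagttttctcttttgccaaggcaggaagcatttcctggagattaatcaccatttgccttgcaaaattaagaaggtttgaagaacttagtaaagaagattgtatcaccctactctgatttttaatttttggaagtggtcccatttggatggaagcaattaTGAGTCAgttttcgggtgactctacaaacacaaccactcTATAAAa
Mmp10: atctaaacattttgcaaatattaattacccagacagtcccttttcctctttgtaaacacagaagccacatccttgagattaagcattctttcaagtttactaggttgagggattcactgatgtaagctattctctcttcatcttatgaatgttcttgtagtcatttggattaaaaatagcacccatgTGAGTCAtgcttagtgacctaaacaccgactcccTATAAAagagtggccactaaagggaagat

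Gzmd, a member, and Gzme, its neighbour, are shown because their promoters were nearly the same. Capitals mark TGTGGT, the core letters that RUNX factors bind, on either strand. The Gzmd stretch is chr14:56132609-56132843 and the Gzme stretch is chr14:56120626-56120875, both on the minus strand, and the Gzmd stretch stops short of the RefSeq start because the last bases lie inside the gene as the deposited table draws it.
Gzmd: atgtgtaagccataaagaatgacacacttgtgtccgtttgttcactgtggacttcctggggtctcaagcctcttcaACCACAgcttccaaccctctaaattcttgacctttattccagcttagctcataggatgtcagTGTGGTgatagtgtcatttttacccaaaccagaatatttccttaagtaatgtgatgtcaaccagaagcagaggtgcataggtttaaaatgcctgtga
Gzme: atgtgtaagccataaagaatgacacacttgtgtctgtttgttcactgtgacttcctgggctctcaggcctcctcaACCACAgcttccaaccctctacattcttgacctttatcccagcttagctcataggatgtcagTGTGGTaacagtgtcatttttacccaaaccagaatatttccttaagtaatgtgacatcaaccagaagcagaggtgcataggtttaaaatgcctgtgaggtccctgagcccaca

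Pcdh17 is shown as a member with a CpG-dense start, and capitals mark each CpG. The stretch is chr14:84443313-84443562 on the plus strand.
Pcdh17: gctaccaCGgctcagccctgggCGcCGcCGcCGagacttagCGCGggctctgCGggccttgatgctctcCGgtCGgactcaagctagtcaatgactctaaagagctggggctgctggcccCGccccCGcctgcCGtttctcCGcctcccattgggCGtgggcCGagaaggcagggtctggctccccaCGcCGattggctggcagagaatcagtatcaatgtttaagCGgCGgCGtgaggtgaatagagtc

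The printed Pcdh17 stretch held 21 CpG sites, the Mmp3, Mmp10 and Gzmd stretches 1 each and the Gzme stretch 0. TATAAA began 7 bases before the RefSeq start in Mmp3 and 29 bases before it in Mmp10, and TGANTCA began 46 and 63 bases before it. Over the 250 bases before the start, Gzmd and Gzme were identical at 238 of 251 aligned positions (94.8%), and Mmp3 and Mmp10 at 164 of 295 (55.6%). The letters TGTGGT began 174 and 112 bases before the start in Gzmd and 175 and 113 bases before it in Gzme.

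The promoter table, 300 bases a gene of which 50 lie after the start, matched 40 of the 55 genes, or 72.7%. This is under the 80% needed for a comparison of sets, so any check of GC content, CpG sites or motifs over the whole set is void. The entries below describe single genes, and the values over all autosomal promoters are not a comparison with the set. No entry was found for 15 genes, among them 2610204G07Rik, Adamts16, AL805899.1, C2, Esam, Gm45716, Gm6650, Mogat2, Muc15, Nptx2, Rims2, Tcim and Tmem74. Among the genes with an entry, the count of CpG sites in 300 bases ran from 47 in Pard6b and 43 in Wnt2b to 1 in Mmp3, Gm6093, Ifi203 and Lce1h and 0 in Lingo2, beside a median of 11 over 19471 autosomal promoters. The Lingo2 entry starts 232784 bp from the 5′ end of the gene as deposited, so its 0 does not describe that end. TATAAA was found on either strand in Mmp3, Mmp10, Prl3a1, Tnfsf18, Gm6093, Gpr1, Mycl and Gabrb2, and in 13.3% of all autosomal promoters. TGANTCA was found in Mmp3, Mmp10, Prl3a1, Gm6093, Ifi203, Mt2, Sdcbp2, Spock1 and Fam110c, and in 7.45% of all. TGTGGT was found in Gzmd and Gabra4 and in 15.6% of all, and GGAATG, the letters of TEAD factors, in Tnfsf18, Kcnk12, Fam110c and Ifi203 and in 13.9% of all. The cyclic AMP response element TGACGTCA was found in 0 of the 40 and in 2.28% of all.

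Summed over the 55 genes, the WT libraries held 207, 284 and 292 counts, and the TCKO libraries 2269, 2018 and 2326. In CPM the summed level was 24.6, 27.9 and 35.2 in WT and 260, 252 and 265 in TCKO. All 55 stayed low in TCKO, with a median of 3.82 CPM and a range of 2.39 to 12.3 CPM, beside a WT median of 0.563 CPM. No member was at 0 in all WT libraries. In 10 members no WT library held more than 3 counts, the number that a true 0 can hide: Mmp10, Tac1, Tuba8, 6330403K07Rik, Tnfsf18, Derl3, Eomes, Muc15, Lingo2 and Kcnd3. Of these Mmp10 and Tac1 averaged at least 5 CPM in TCKO. For these genes a ratio to WT is a lower bound against 3 counts in each library, a mean of 0.338 CPM.

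**Figure D1:**
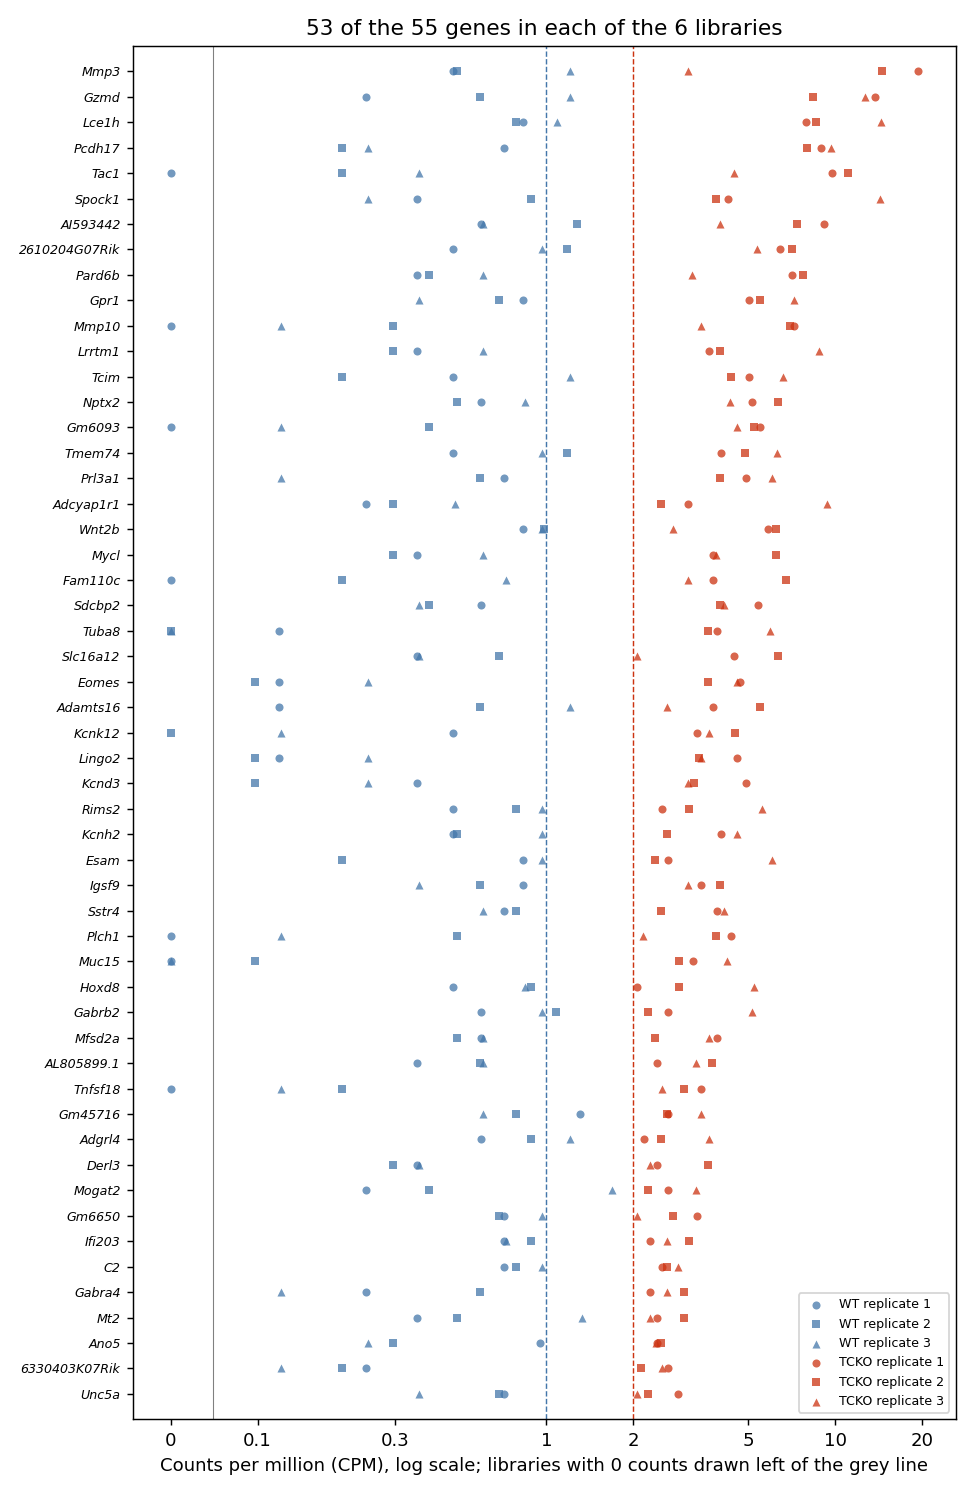
CPM of the genes (rows, 53 of the 55 drawn, ordered by the TCKO mean) in the 3 WT libraries (blue) and the 3 TCKO libraries (red), on a log axis, with the 2 limits of the rule as dashed lines. TCKO values mostly lie between 2 and 10 CPM, and replicate 3 (triangles) lies apart from replicates 1 and 2 in Mmp3, Spock1 and Adcyap1r1.

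At the WT limit, members just inside were Wnt2b at a WT mean of 0.927 CPM and Lce1h at 0.901, and the genes just outside were 9930014A18Rik at 1.01, Zfp429 at 1.02 and Galnt13 at 1.02. At the TCKO limit, Gm6650, Slc16a12 and Unc5a were just inside with a lowest TCKO library of 2.05 CPM, and Inava and Ptprt at 1.995 and AI661453 at 1.95 were just outside.

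The highest levels per kilobase of exon, in CPM divided by the exon length in kilobases (RPKM), covered coding and non-coding genes. Mean TCKO levels were 14.6 RPKM for Lce1h, a cornified envelope protein of the skin, 12.02 for Gzmd, a granzyme, 6.83 for Mmp3 and 6.35 for the antisense transcript 2610204G07Rik. Below them came the pseudogene Gm6650 (4.41), the metal-binding Mt2 (4.35), Mmp10 (3.41), Sdcbp2 (3.21), Tcim (2.96), the lincRNA AL805899.1 (2.90), Prl3a1 (2.80) and Tac1 (2.48). The lowest belonged to long transcripts, Ano5 at 0.311 RPKM, Rims2 at 0.360 and Kcnd3 at 0.391.

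Proteases gave 4 members. Mmp3, stromelysin 1, which cuts many matrix proteins, had WT counts of 4, 5 and 10 against TCKO counts of 169, 116 and 27, or 0.724 ± 0.417 and 12.3 ± 8.35 CPM (SD, n = 3 each), a ratio of 17.0. TCKO replicate 3 was far below the other TCKO libraries and nearer to WT, without reaching it. Mmp10, the related stromelysin 2, had WT counts of 0, 3 and 1 against TCKO counts of 63, 56 and 30, at least 17.4-fold higher, and again replicate 3 was the lowest of the TCKO group. Gzmd, a cytotoxic serine protease, had WT counts of 2, 6 and 10 against TCKO counts of 120, 67 and 111 (11.6 ± 2.85 CPM), a ratio of 17.1. Adamts16 had WT counts of 1, 6 and 10 against TCKO counts of 33, 44 and 23, a ratio of 6.21.

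Mmp3 and Mmp10 lie 46376 bp apart in a run of 10 matrix metalloproteinase genes on chromosome 9 whose other members behaved unlike each other. Mmp13, the main osteoblast collagenase, had WT counts of 1508, 1913 and 1077 against TCKO counts of 2087, 2089 and 192, and was not called in the test described with the neighbours. Its TCKO replicate 3 was the low library, as for Mmp3 and Mmp10. Mmp12, macrophage elastase, had WT counts of 83, 99 and 41 against TCKO counts of 19, 23 and 14 and was called lower. Mmp1a, between the pair, never passed 3 counts in a library, and Mmp8 never passed 17.

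Gzmd lies in a run of 16 granzyme and mast cell protease genes on chromosome 14, of which 2 non-members passed the low-count filter and both were called higher, where 3.16% of all tested genes were called higher and 3.19% lower. Mcpt8, a basophil protease, had WT counts of 9, 5 and 14 against TCKO counts of 327, 247 and 224. Gzme had WT counts of 13, 20 and 20 against TCKO counts of 211, 222 and 162. Neither gene had overlapping groups, a pattern that was not counted over all tested genes. The remaining genes of the run stayed at 7 counts or fewer in every library.

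**Figure D2:**
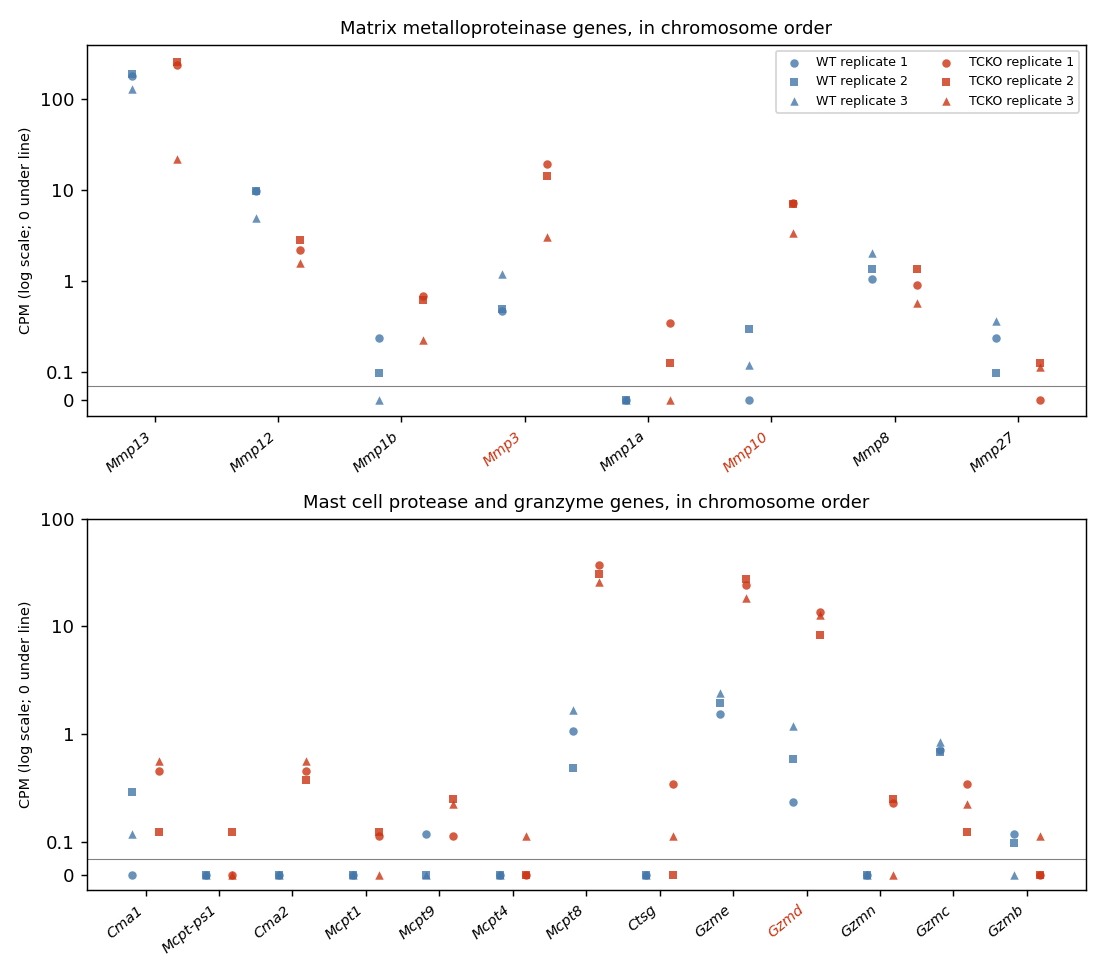
CPM (log axis) of the genes with at least 1 count in the matrix metalloproteinase run (top) and the granzyme run (bottom), in chromosome order, in WT (blue) and TCKO (red) libraries. Members of the set are named in red, and Mcpt8, Gzme and Gzmd stand above the other genes of their run in TCKO, while Mmp12 is lower in TCKO.

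Ion channels gave 6 members. Kcnd3, a voltage-gated potassium channel, had WT counts of 3, 1 and 2 against TCKO counts of 43, 26 and 27. Kcnk12, of the leak channels with paired pore domains, had WT counts of 4, 0 and 1 against TCKO counts of 29, 36 and 32. Kcnh2, the cardiac delayed rectifier, and Ano5, an anoctamin of muscle and bone, averaged 3.73 ± 1.002 and 2.43 ± 0.0540 CPM in TCKO. Both GABA-A receptor members, ligand-gated chloride channel subunits of inhibitory synapses, were low. Gabra4 had WT counts of 2, 6 and 1 against TCKO counts of 20, 24 and 23, and Gabrb2 had WT counts of 5, 11 and 8 against TCKO counts of 23, 18 and 45.

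The subunit gene next to Gabra4 was called higher in TCKO. Gabrb1, which lies head to head with Gabra4 and overlaps it, had WT counts of 13, 14 and 13 against TCKO counts of 82, 84 and 58. Of 25 tested genes outside the set with a potassium channel symbol, 2 were called higher (Kcnab1 and Kcnc2) and 2 lower (Kcne4 and Kcnk2), beside 3.16% and 3.19% of all tested genes. The 25 include Kcnq1ot1, a transcript that is not a channel. Kcnc2 had TCKO counts of 13, 12 and 69, with replicate 3 far above the others.

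Synaptic and adhesion genes formed a broad group. Pcdh17, a neuronal protocadherin, had WT counts of 6, 2 and 2 against TCKO counts of 78, 64 and 85, a ratio of 23.1, with TCKO libraries close together. Lingo2, a leucine-rich repeat membrane protein of neurons, had WT counts of 1, 1 and 2 against TCKO counts of 40, 27 and 30, and spans 1245101 bp, the longest gene of the set. Lrrtm1, a synapse organiser, had WT counts of 3, 3 and 5 against TCKO counts of 32, 32 and 77, and Spock1, a brain proteoglycan, had WT counts of 3, 9 and 2 against TCKO counts of 37, 31 and 125. In both the TCKO replicate 3 library was the high one. Nptx2, a secreted neuronal pentraxin, had WT counts of 5, 5 and 7 against TCKO counts of 45, 51 and 38. Of 2 tested neuronal pentraxin genes outside the set 1 was called higher, beside 3.16% of all tested genes. The called gene, Nptx1, had WT counts of 31, 35 and 20 against TCKO counts of 602, 509 and 1020. Rims2, an active zone protein, Igsf9 and the netrin receptor Unc5a averaged 3.74, 3.50 and 2.39 CPM in TCKO. Unc5d, another netrin receptor, had WT counts of 0, 1 and 1 against TCKO counts of 14, 12 and 15 and missed the limit of 2 CPM. It was the only 1 called higher of 3 tested UNC5 netrin receptor genes outside the set. Muc15, a membrane mucin, had WT counts of 0, 1 and 0 against TCKO counts of 28, 23 and 37, at least 10.2-fold higher.

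Among secreted ligands, Tac1, the precursor of substance P, had the highest lower bound of a ratio. It showed WT counts of 0, 2 and 3 against TCKO counts of 85, 89 and 39 (8.43 ± 3.51 CPM), at least 24.9-fold higher, with replicate 3 the lowest. None of the other tachykinin and tachykinin receptor genes passed the low-count filter. Prl3a1, a placental hormone of the prolactin family, had WT counts of 6, 6 and 1 against TCKO counts of 43, 32 and 53, while the other 25 genes of the family never passed 8 counts in a library. Tnfsf18, the ligand of the T cell receptor GITR, had WT counts of 0, 2 and 1 against TCKO counts of 30, 24 and 22. Wnt2b had WT counts of 7, 10 and 8 against TCKO counts of 51, 50 and 24, and of the 8 tested Wnt ligands outside the set 0 were called higher and 1, Wnt10b, was called lower, where 3.16% and 3.19% of all tested genes were called in these directions. Wnt10b had WT counts of 101, 122 and 213 against TCKO counts of 28, 27 and 76. Wnt5a had an adjusted p of 0.0172 (edgeR) but was not called, as its log2 fold change, 0.729, lay under the fold limit.

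Receptors for peptides were present as well. Adcyap1r1, the receptor of the neuropeptide PACAP, had WT counts of 2, 3 and 4 against TCKO counts of 27, 20 and 82, with replicate 3 apart from the others. Gpr1, a chemerin receptor, had WT counts of 7, 7 and 3 against TCKO counts of 44, 44 and 63, a ratio of 9.41. Sstr4, a somatostatin receptor, averaged 3.50 ± 0.877 CPM in TCKO and was the only 1 of the 5 somatostatin receptor genes in the test. Adgrl4, an adhesion receptor of endothelium, was the member with the smallest ratio, 3.10.

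By known roles, members also included transcription factors. Eomes, a T-box factor of early mesoderm, cortex and T cells, had WT counts of 1, 1 and 2 against TCKO counts of 41, 29 and 40, at least 12.7-fold higher. Mycl, a MYC relative, had WT counts of 3, 3 and 5 against TCKO counts of 33, 50 and 34. Hoxd8 had WT counts of 4, 9 and 7 against TCKO counts of 18, 23 and 46, while the other 9 genes of the Hoxd cluster never passed 4 counts in a library.

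The remaining members had mixed roles. Lce1h had WT counts of 7, 8 and 9 against TCKO counts of 69, 69 and 126, a ratio of 11.4, and 16 of the 21 late cornified envelope genes had no count at all. Tuba8, an alpha-tubulin, had WT counts of 1, 0 and 0 against TCKO counts of 34, 29 and 52. Pard6b, a cell polarity protein, had WT counts of 3, 4 and 5 against TCKO counts of 62, 62 and 28, and Slc16a12, a creatine transporter, had WT counts of 3, 7 and 3 against TCKO counts of 39, 51 and 18. In both replicate 3 was the low TCKO library. Mt2 averaged 2.56 ± 0.380 CPM in TCKO. Mt1, the metallothionein gene beside it, had WT counts of 115, 129 and 119 against TCKO counts of 191, 210 and 198. For Mt1 the adjusted p was 0.00486 (edgeR), but it was not called because its log2 fold change, 0.766, lay under the fold limit. Plch1, a phospholipase C, averaged 0.204 CPM in WT and 3.46 CPM in TCKO, and Mfsd2a, a transporter of lysolipids at the blood-brain barrier, 0.563 and 3.31 CPM. Mean TCKO levels were 2.73 CPM for the acyltransferase Mogat2, 2.77 for Derl3 of the endoplasmic reticulum, 2.66 for complement component C2, 2.68 for the interferon-inducible Ifi203, 4.49 for the syntenin relative Sdcbp2, 5.34 for Tcim and 4.53 for Fam110c. For Tmem74, AI593442, 6330403K07Rik and Gm45716 they were 5.05, 6.84, 2.42 and 2.89 CPM. Esam, an adhesion molecule of endothelium, had WT counts of 7, 2 and 8 against TCKO counts of 23, 19 and 53.

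Of the 55 genes, 51 were protein-coding (92.7%), 3 were long non-coding (2610204G07Rik, Gm6093 and AL805899.1) and 1 was a pseudogene (Gm6650). Other near-silent WT genes, the 11872 autosomal genes with at least 1 count and a WT mean under 1 CPM, were 35.8% protein-coding. Other genes with 2 CPM or more in each TCKO library, 11699 in number, were 90.6% protein-coding. Gm6093 had WT counts of 0, 4 and 1 against TCKO counts of 48, 42 and 40, which was the largest ratio of means, 29.8. AL805899.1 overlaps Mir31 and averaged 3.15 ± 0.681 CPM in TCKO.

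By patterns in gene symbols, 6 of the 51 protein-coding members (11.8%) were ion channels, beside 2.92% of the other near-silent WT genes and 0.538% of the other genes expressed in TCKO. Matrix and adhesion molecules also gave 6 members (11.8%), beside 2.89% and 1.99%, and proteases gave 4 (7.84%), beside 2.71% and 0.679%. G protein-coupled receptors gave 3 (5.88%), a share near the 5.20% of the other near-silent genes. Ligands gave 3, transcription factor families 2, immune molecules 2, and solute carriers, cytoskeletal proteins and enzymes 1 each, while 22 matched no pattern. The patterns are coarse: Adcyap1r1 was placed among the enzymes and Eomes in no class. The class shares are descriptions without a test.

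**Figure D3:**
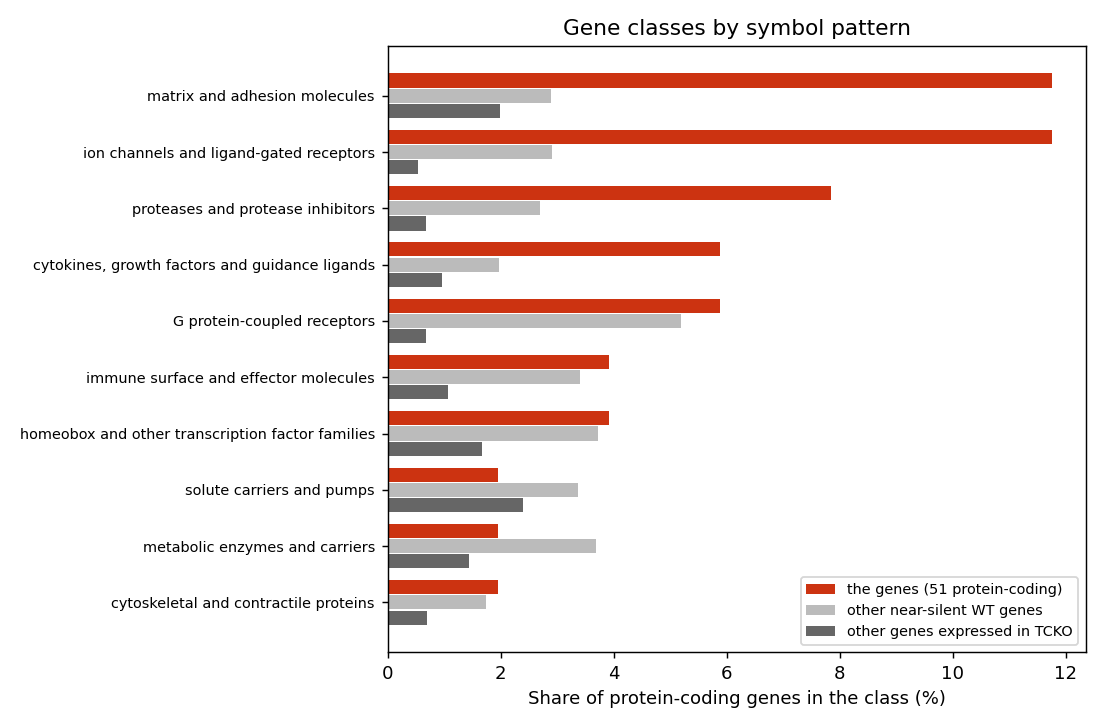
Share of protein-coding genes (%) in each of 10 classes set by symbol patterns, for the 51 protein-coding members (red), other near-silent WT genes (light grey) and other genes expressed in TCKO (dark grey). The red bars for ion channels and for matrix and adhesion molecules both reach 11.8%, and those for G protein-coupled receptors and transcription factors lie close to the light grey bars.

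The sizes of members varied widely. The median exon length of the protein-coding members was 3399 bp and the median gene span 17091 bp, beside 2907 and 17251 bp for the other near-silent protein-coding genes and 4738 and 25350 bp for the other protein-coding genes expressed in TCKO. Over all biotypes the members ranged from 588 bp of exon in Mt2 to 12991 bp in Pcdh17. A further set chosen the opposite way, the 34 genes with a TCKO mean under 1 CPM and 2 CPM or more in each WT library, had a median exon length of 3784 bp and a median span of 60445 bp.

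TCKO libraries disagreed on many members. Replicate 3 was more than 2-fold above the mean of replicates 1 and 2 for 6 genes: Spock1 (3.52-fold), Adcyap1r1 (3.35), Esam (2.42), Lrrtm1 (2.29), Hoxd8 (2.13) and Gabrb2 (2.10). It was more than 2-fold below for 7 genes, at 0.182 of the mean for Mmp3, 0.379 for Slc16a12, 0.427 for Tac1, 0.431 for Pard6b, 0.453 for Wnt2b, 0.482 for Mmp10 and 0.483 for AI593442. The 13 genes are 23.6% of the members, beside 5.30% of 3019 other TCKO-expressed genes no higher than the highest member. The median ratio over the members was 0.993. The rule itself required 2 CPM in replicate 3, so this median cannot show whether replicate 3 was low or high as a whole. Replicates 1 and 2 were within 1.5-fold of each other for 46 of the 55. Xist, Ddx3y and the share of mitochondrial counts moved with replicate 3, and their part in these differences was not tested. Without TCKO replicate 3 the rule took 76 genes, with all 55 among them.

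**Figure D4:**
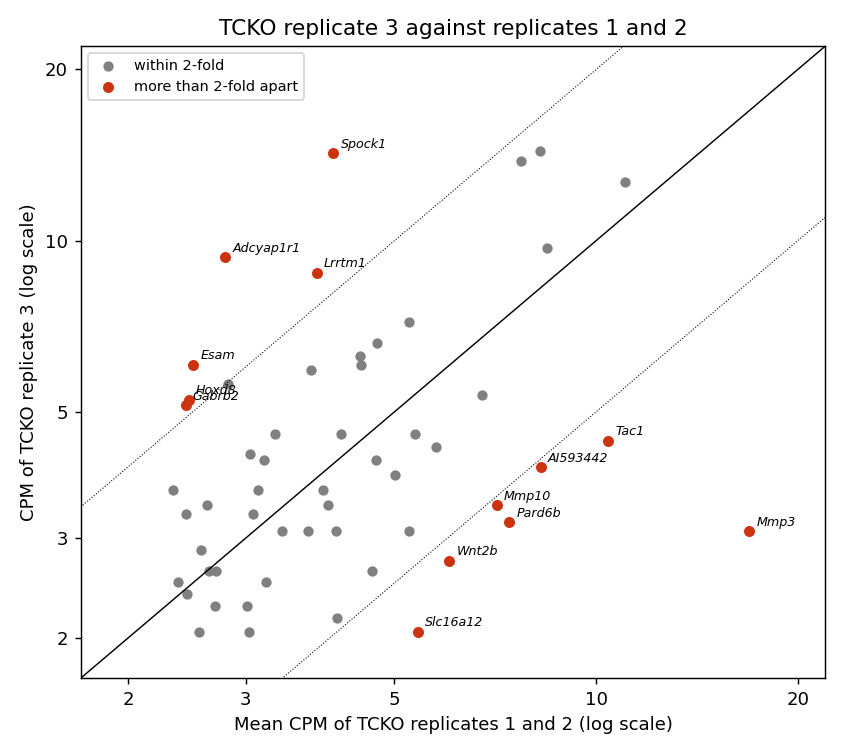
CPM of the 55 genes in TCKO replicate 3 (vertical, log axis) against the mean of TCKO replicates 1 and 2 (horizontal, log axis), with the line of equality and dotted lines at 2-fold. The 13 genes more than 2-fold apart are named, with Spock1 and Adcyap1r1 farthest above and Mmp3 farthest below.

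The counts of some members may hold reads of other genes. Exons of 14 members share bases with another gene, in 10 cases one with any count and in 4 cases one with more TCKO counts than the member. These 4 were Gm45716, which shares 280 bp (12.8% of its exons) with Mmd on the same strand, and C2, Muc15 and Gabra4, which share 161, 61 and 46 bp with Zbtb12, Ano3 and Gabrb1 on the opposite strand. The library kit keeps the strand, but whether counting used it is not given in the sources used here, and without it reads of opposite genes cannot be told apart. Ano3 had WT counts of 374, 443 and 332 against TCKO counts of 202, 167 and 314, so its values ran the other way from those of Muc15. Stretches of 100 bases found also in a transcript of another gene, on either strand, made up 10% or more of 6 members, among them C2 (37.1%, mostly the readthrough gene Gm20547), Mt2 (22.4%), Tcim (14.01%), Tuba8 (12.5%) and Gm45716 (12.04%). The main partner genes of C2, Mt2, Tcim and Tuba8 gave at most 1 count in any library, and that of Gm45716 was Mmd. In 40 members no such stretch was found, and Gzmd shared 0.231% with Gzmg and none with Gzme.

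The genes beside the members were not chosen by the rule and were tested. For each member, the nearest gene outside the set on each side was taken among the 13826 genes that passed edgeR's low-count filter, which all 55 members passed too. A gene was called at an adjusted p under 0.05 (edgeR quasi-likelihood test, Benjamini-Hochberg adjustment over all tested genes) and a fold change over 2. Of 105 different neighbours, 12 were called higher in TCKO (11.4%), where 3.16% of all tested genes were called higher, and 3 were called lower (2.86%), where 3.19% of all tested genes were called lower. The shares over all tested genes, here and in other paragraphs, include the members. Among the 13771 tested genes outside the set, 2.79% were called higher and 3.2% lower. The neighbours of other near-silent WT genes were called higher in 2.95% of cases and those of other TCKO-expressed genes in 2.72%. The 34 genes chosen the opposite way had 68 neighbours, of which 1.47% were called higher and 16.2% lower. These shares stand side by side as descriptions. The gap to the neighbours had a median of 102951 bp for the members, beside 33634 bp for the other near-silent genes. With replicates 1 and 2 of each genotype summed, so that 2 samples stood against 2, 7 neighbours were called higher and 0 lower. Without TCKO replicate 3, 14 were called higher and 3 lower, and without the neighbours that overlap a member 10 of 98 were called higher.

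**Figure D5:**
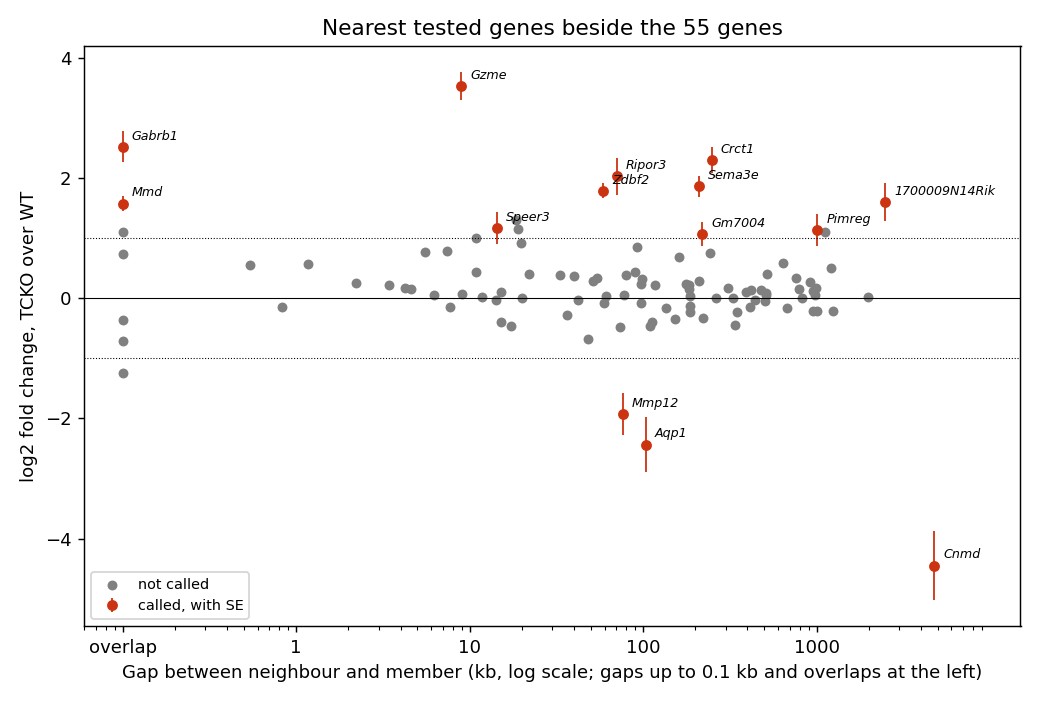
log2 fold change (TCKO over WT) of the genes nearest to the 55 members (1 not drawn) against the gap to the member in kb (log axis, overlapping genes at the left), with standard errors for called genes (red) and dotted lines at a 2-fold change. Gzme and Gabrb1 are highest of those drawn, and Cnmd, Aqp1 and Mmp12 are the 3 called lower.

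Gzme, 8930 bp from Gzmd, had the highest log2 fold change among the neighbours, 3.53 ± 0.23 (SE), with an adjusted p of 0.000127 (edgeR). Gabrb1, overlapping Gabra4, had a log2 fold change of 2.52 ± 0.26 (adjusted p = 0.000767). In both the neighbour belongs to the same gene family as the member. Crct1, a cornified envelope gene 249139 bp from Lce1h, had WT counts of 29, 32 and 47 against TCKO counts of 170, 154 and 197, a log2 fold change of 2.30 ± 0.22 (adjusted p = 0.000602). None of these pairs of groups overlapped, but the share of all tested genes without overlap was not counted.

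Other neighbours were called as well, among them Mmp12, called lower, which belongs to the same gene family as Mmp3. Zdbf2, which shares an imprinted domain with Gpr1 and lies 58721 bp from it, had WT counts of 188, 203 and 156 against TCKO counts of 572, 534 and 738, a log2 fold change of 1.79 ± 0.12 (adjusted p = 0.000142). Sema3e, a semaphorin 210823 bp from Gm6650, had WT counts of 548, 622 and 384 against TCKO counts of 2055, 1879 and 1514, a change of 1.87 ± 0.17 (adjusted p = 0.000521). Mmd, which shares exon bases with Gm45716, had WT counts of 157, 216 and 206 against TCKO counts of 522, 509 and 647, a change of 1.58 ± 0.12 (adjusted p = 0.000254). These 3, Gzme, Gabrb1 and Crct1 were among the 7 that were also called with replicates 1 and 2 summed, where their highest adjusted p was 0.0329.

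The other 5 higher calls did not hold in that fit. They were Ripor3 beside Pard6b (log2 fold change 2.03 ± 0.31, adjusted p 0.0834 in the summed fit and from 2.09e-06 over all alternatives), 1700009N14Rik 2498547 bp from Lingo2 (1.60 ± 0.32, 0.0826 and from 0.00335), Speer3 beside Gm6650 (1.17 ± 0.27, 0.153 and from 0.00167), the pseudogene Gm7004 beside Pcdh17 (1.07 ± 0.20, 0.110 and from 0.00318) and Pimreg 1008518 bp from 6330403K07Rik (1.14 ± 0.27, 0.206 and from 0.000313). Nor did the 3 lower calls. Aqp1, a water channel beside Adcyap1r1, had WT counts of 1179, 1330 and 1512 against TCKO counts of 143, 113 and 481 (log2 fold change -2.44 ± 0.46). Mmp12 had a log2 fold change of -1.92 ± 0.35, and Cnmd, chondromodulin, 4781392 bp from Pcdh17, of -4.45 ± 0.57. The groups of all 3 were apart, which was not counted over all tested genes either. Their adjusted p was 0.120, 0.109 and 0.0578 in the summed fit (edgeR), and from 7.54e-07, 3.27e-05 and 2.75e-09 over all alternatives.

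Members were spread over 17 autosomes with at most 6 on any of them. Another member lay within 1 Mb for 6 of the 55 (10.9%), beside 5.99% of other near-silent WT genes and 5.62% of other TCKO-expressed genes with a member that near. The pairs were Mfsd2a and Mycl, 34463 bp apart on chromosome 4, Mmp3 and Mmp10 on chromosome 9, and Wnt2b and Kcnd3, 490408 bp apart on chromosome 3. Between the first and the second gene of Wnt2b and Kcnd3 lay 1 tested gene, Cttnbp2nl, and between the others none.

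Marker lists of other cell types that the cultures could hold were set beside the set, since in bulk RNA fewer cells of a type and less RNA per cell cannot be told apart. Of 13 lists only the endothelial one held a member, Esam. Its 20 genes summed to 248 to 267 CPM in WT and 153 to 250 CPM in TCKO. Most of the WT sum was Eng, at a mean of 232 CPM in WT and 87.2 CPM in TCKO. Pecam1 averaged 0.309 and 0.478 CPM and Cdh5 0.578 and 0.478 CPM. Of 7 tested outside the set, Kdr, Flt1 and Flt4 were called higher and Eng and Erg lower. Here and for the other lists, 3.16% of all tested genes were called higher and 3.19% lower. The 12 neuronal markers summed to 79.9 to 93.6 CPM in WT and 122.8 to 140.8 CPM in TCKO. Stmn2 and Gap43, 2 of 6 tested, were called higher, while Elavl3 was at 0 in all libraries. The 12 mast cell and basophil markers summed to 2.62 to 8.20 CPM and 35.9 to 47.1 CPM. Of the TCKO sum most was Mcpt8, at a mean of 31.3 CPM. Of these 12, Fcer1a, Cpa3, Prss34 and Tpsb2 were at 0 in all libraries and 2 passed the low-count filter. Mcpt8 was called higher, and Gata2, with WT counts of 9, 20 and 48 against TCKO counts of 48, 40 and 181, was not called (adjusted p = 0.123, edgeR). The 16 haematopoietic markers summed to 424 to 764 CPM and 177 to 579 CPM, and 4 of 14 tested (Spi1, Itgam, Adgre1 and Csf1r) were called lower. The 12 osteoblast markers summed to 30107 to 32053 CPM and 14551 to 22531 CPM, with 1 of 8 tested, Alpl, called lower. The 11 chondrocyte markers summed to 7152 to 8913 CPM and 912 to 1230 CPM, with 9 of 10 tested called lower. The 11 epithelial markers summed to 1.81 to 5.404 CPM and 0.114 to 2.00 CPM, with Krt14 and Grhl2 at 0 in all libraries. Trp63, the only 1 tested, was called lower. The 20 germline markers summed to 4.52 to 5.31 CPM and 3.62 to 5.50 CPM, and none passed the low-count filter. Over all libraries the glial markers summed to 31.9 to 38.2 CPM in WT and 31.7 to 45.1 CPM in TCKO, skeletal muscle markers to 13.4 to 48.8 and 44.5 to 99.4, smooth muscle markers to 2201 to 2370 and 2593 to 3037, adipocyte markers to 40.9 to 58.9 and 23.4 to 33.6, and tendon and fibroblast markers to 362 to 560 and 310 to 586. Calls in these lists were Mbp higher and S100b lower (glia, 4 tested) and Acta1 higher (skeletal muscle, 6 tested). Cnn1 and Mcam were called higher and Cspg4 lower (smooth muscle, 8 tested). Dpp4 and Thy1 were called higher and Tnmd and Ly6a lower (tendon and fibroblast, 8 tested), while 0 of 3 tested adipocyte markers were called. Single genes also made up much of other sums, such as Lyz2 (haematopoietic), Acta2 (smooth muscle), Col1a1 (osteoblast) and Col2a1 (chondrocyte). Their WT means were 505, 1855, 22046 and 6374 CPM. The part of any of these cell types in the set was not tested.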

How the data were processed

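Raw counts per gene were used as deposited: the authors aligned reads with STAR 2.7.0e to GRCm38 (Ensembl 99 annotation) and counted them over exons with featureCounts 2.0.0, per the submitters' processing notes, and deposited exon lengths in bp (another unit) beside the counts. Strand setting and treatment of shared reads are not given in the sources used here. Columns of sample values without a sample numbered 0, as did rows without a gene name. The genotype and the replicate number of each of the 6 libraries were read from its title.

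CPM used column totals, and 3 counts equalled 0.295 to 0.374 CPM, which covers counting error only. Symbols were found for 99.4% of genes, and biotypes and transcripts came from GENCODE M21. The members, gene lists, families and tests were chosen with earlier results of these data known. Genes were named if they were in the 12 highest per kb of exon, in a class or marker list, next to a limit, at 3 counts or fewer in every WT library with a TCKO mean of 5 CPM or more, beside a called neighbour or near another member, and the other members were added, except a few genes that are not reported here. Families and the TCKO replicate 3 comparison were described after values were seen. Neighbours were tested with edgeR 4.0.16 (R 4.3.3, filterByExpr, TMM, glmQLFit), with DESeq2 1.42.0 as an alternative, and the code was tested on simulated data. Each SE was derived from the edgeR test, as the absolute log2 fold change divided by the square root of the F statistic. Deviations of equally numbered replicates from their group means correlated at 0.204, 0.214 and 0.347. Replicate 3 lay apart in both genotypes, so these values cannot show whether samples were paired by number. The main fit held no replicate term. A replicate number as a block, a term for replicate 3, summed replicates, other scalings and filters, and single libraries left out were tried.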

Additional observations from a re-analysis of the deposited data

How the results depend on the processing

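The rule took 55 genes with column totals and with TMM or RLE scaling, the same 55 genes each time. It took 26 with a WT mean under 0.5 CPM, and 41 of the 55 had each WT library under 1 CPM. With a TCKO minimum of 1 CPM it took 208 and with a minimum of 4 CPM 11, as limits of a rule must move it. With 1 library left out it took 53 to 76, of which at least 49 were among the 55. Neighbours called higher numbered 12 as reported, 7 with replicates 1 and 2 summed, 6 within 100 kb of a member (of 53 neighbours), and 9 to 14 with 1 library left out. Neighbours called lower numbered 3, then 0 with replicates 1 and 2 summed, 1 within 100 kb, and 3 whichever library was left out. The replicate block gave 12 higher and 4 lower, so it added 1 lower call and changed no other call. DESeq2 gave 12 and 4, and fewer samples are tested in the summed fit. Without the low-count filter neighbours were drawn from more genes, and 8 were called higher and 2 lower. Speer3 and Pimreg lost their calls without TCKO replicate 1 or without TCKO replicate 2, Speer3 and Gm7004 without WT replicate 2 or without WT replicate 3, and Pimreg without WT replicate 1 or without WT replicate 2. Mean TCKO levels of all 55 members moved by less than 1 SD under TMM scaling. The planned count of members with CpG-rich promoters was not run, because 40 of 55 members had a promoter.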
